A study of Homo sapiens with 6 samples.

Results

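The enzymes that write and erase methyl and acetyl groups on lysines were examined in HCT-116 cells after transfection with a GapmeR against the long noncoding RNA CASC9. They were taken from the expression table by a rule on gene symbols alone (the KMT, SETD, SETDB, EHMT, EZH, SUV39H, NSD, KDM, KAT, HDAC and SIRT series). This gave 70 of the 27918 genes and loci in the table. The study asked how the expression profile of HCT-116, an established human colorectal carcinoma cell line, changed when CASC9 was targeted. Cells received a GapmeR against CASC9 (GapC9, 3 libraries) or a negative control GapmeR (GapNC, 3 libraries) at the same final concentration. A GapmeR is an antisense oligonucleotide whose DNA center recruits RNase H to the paired RNA. Poly(A) RNA was sequenced and expression was given as FPKM (fragments per kilobase of transcript and per M mapped fragments, where M is mega). The sources used here do not say whether the libraries of a group came from separate cultures, so p-values measure only the spread between these libraries, which may be technical.

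Histone lysine methyltransferases carry a SET domain and transfer methyl groups from S-adenosylmethionine, and the outcome depends on the lysine. Methylation of H3K4 marks active promoters and enhancers, H3K36 methylation covers transcribed gene bodies, and H3K9 and H3K27 methylation mark silent chromatin. Demethylases of the KDM1 type use flavin and those with a Jumonji C (JmjC) domain use iron and 2-oxoglutarate. Acetyltransferases (KATs) neutralize lysines and are linked to open chromatin, and histone deacetylases (HDACs, zinc dependent) and sirtuins (NAD dependent) remove the acetyl group.

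Some facts of the libraries bear on all values. CASC9 was listed at 0, 0.0108 and 0 FPKM in GapNC replicates 1, 2 and 3, and at 0.0528, 0.107 and 0 FPKM in GapC9, so at these levels near 0 the table shows no lower CASC9 in the GapC9 libraries and cannot check their labels. The directions below are those of the labels, and RT-qPCR of CASC9 is not among the values analysed here. GapNC replicate 1 stood apart in base composition, because its deviation from the mean of all libraries correlated with the GC content of the genes (Spearman's rho of 0.616 across 10117 genes, which are not independent replicates) where the other 5 libraries ranged from −0.376 to 0.029. GapC9 replicates 2 and 3 were the lowest (−0.336 and −0.376), against 0.010 and −0.104 in GapNC replicates 2 and 3. Values without GapNC replicate 1 are therefore given below, but a GC difference between the groups may remain in them. If the smallest frequent increment of low FPKM values is read as 1 fragment, the libraries held 22.7 to 24.4 M fragments. Of 11 markers of colon epithelium, 7 averaged at least 1 FPKM in both groups, including EPCAM and the keratins KRT8, KRT18 and KRT19, and CDX1, HNF4A, LGALS4 and VIL1 averaged 0.0366 FPKM or less. Their summed level was 1023 to 1407 FPKM in GapNC and 999 to 1265 FPKM in GapC9. Summed markers of endothelium reached at most 0.110 FPKM, those of fibroblasts 6.57 to 8.37 FPKM in GapNC and 7.76 to 8.58 FPKM in GapC9, and those of leukocytes 50.3 to 55.8 FPKM in GapNC and 49.9 to 53.5 FPKM in GapC9, of which nearly all was a row that joined CD68 with EIF4A1 and other neighbors, with PTPRC and CD3E at or near 0.

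All 70 enzymes passed the filter of a mean of 0.1 FPKM, and none was listed at 0 in any library. The mean over the 6 libraries was at least 10 FPKM for 13 of them, 1 to 10 FPKM for 50 and under 1 FPKM for 7. FPKM is per length, so genes are compared by it here. Rows joined with a neighbor, exons shared with the opposite strand and GC content limit such comparisons. HDAC1, a class I deacetylase, had the highest level (47.4 ± 2.46 FPKM in GapNC and 50.0 ± 0.952 FPKM in GapC9, mean ± SD, n = 3 each). It was followed by the H3K4 demethylase KDM1A (32.2 ± 2.56 and 34.0 ± 2.17 FPKM). The acetyltransferase KAT2A, whose locus was joined with RAB5C in the table, came next (27 ± 2.83 and 25.7 ± 1.29 FPKM). At the other end, HDAC9 averaged 0.122 ± 0.0148 and 0.101 ± 0.0201 FPKM. The median coefficient of variation between replicates was 12.7% in GapNC and 8.83% in GapC9 over 69 enzymes. KDM5D, a Y chromosome gene, was counted among the 70 but its levels are not given.

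**Figure D1:**
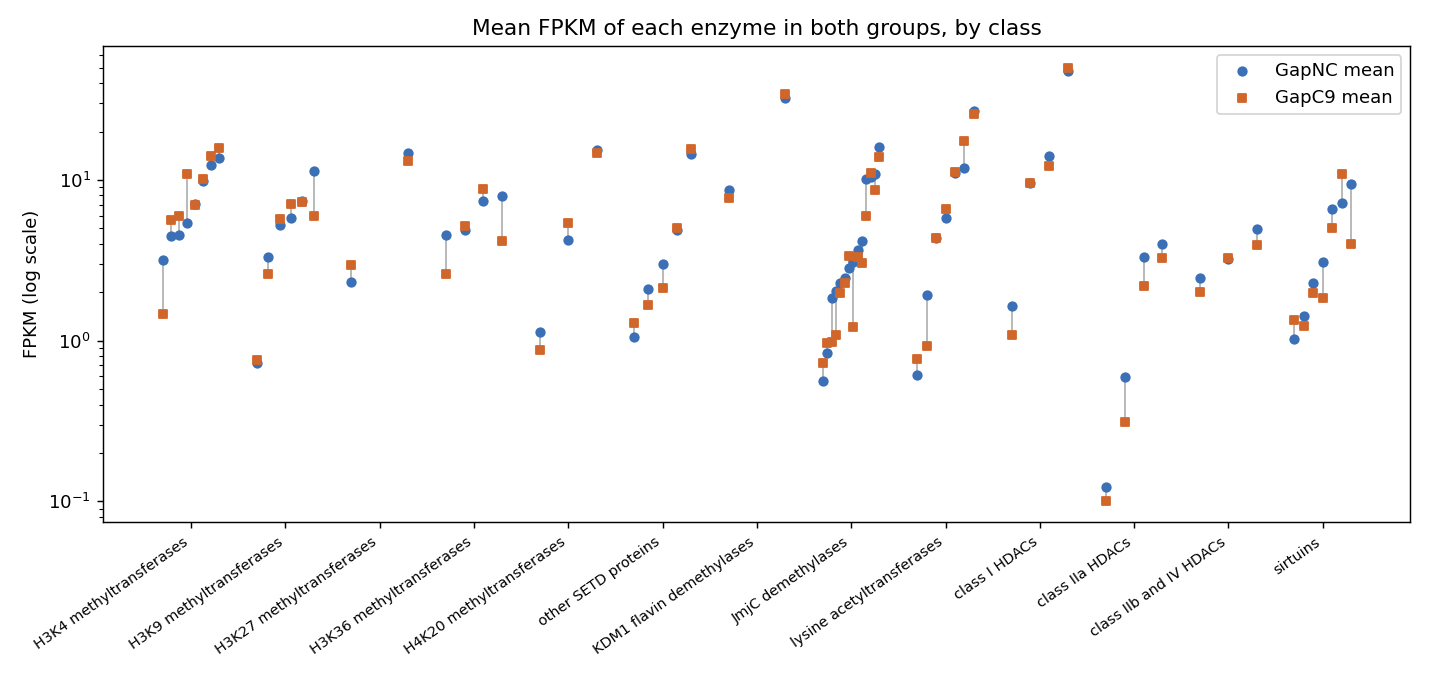
Mean FPKM (log scale) of the enzymes in the 3 GapNC libraries (blue circles) and the 3 GapC9 libraries (orange squares), 1 pair of points per enzyme and joined by a grey line, grouped by class. Levels span from HDAC9 near 0.1 FPKM to HDAC1 near 50.0 FPKM, and most pairs lie close together.

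At an adjusted p under 0.05 in limma, 1 of the 70 enzymes was higher in GapC9 (1.43%, where 1.89% of all 16028 genes and loci tested were called higher) and 9 were lower (12.9%, where 5.1% of all were called lower). The enzyme that rose was KMT2E. Those that fell were the demethylases KDM6A, KDM4C and KDM2A, the methyltransferases KMT2C, NSD2, NSD3 and EHMT2, the acetyltransferase KAT6B and the deacetylase SIRT2. The other 60 did not pass. In bulk RNA, fewer cells that express a gene and less of its RNA per cell cannot be told apart. By the thresholds named in the study's methods, a fold of 2 or more, or 0.5 or less, in mean FPKM with an unadjusted p under 0.05, 1 enzyme was higher (KMT2E, background 2.1%) and 4 were lower (KDM6A, KMT2C, KAT6B and SIRT7, background 4.32%). The 3 values of GapC9 lay above all 3 of GapNC for 8 enzymes (11.4%, background 12.6%) and below them for 21 (30.0%, background 21.6%). The median log2 fold change was −0.06 over the enzymes and −0.08 over all genes and loci tested. Scaling the libraries to a common median moved the median of all genes and loci to 0.07 and that of the enzymes to 0.08, with 2 higher and 6 lower enzymes by adjusted p (2.86% and 8.57%, where 3.01% and 2.66% of all were called, and 25% of the enzymes' calls higher against 10.0% on the deposited scale). A correction for GC content gave 6 higher and 9 lower (8.57% and 12.9%, where 6.58% and 7.69% of all were called, and 40.0% of the enzymes' calls higher). Without GapNC replicate 1 there were 1 higher and 7 lower (1.43% and 10.0%, where 1.51% and 3.58% of all were called). Leaving out any other single library (GapNC replicate 2 or 3, or GapC9 replicate 1, 2 or 3) left 0 lower in limma, with 11 to 18 lower at an unadjusted p under 0.05 (15.7% to 25.7%, where 12.7% to 16.0% of all were), while the calls among all genes and loci fell from 817 to between 17 and 70 lower. KMT2E passed without GapNC replicate 1 or 3 and not without the others (adjusted p of 0.0718 at most, limma). The sign of all 10 called enzymes was the same in each of these fits.

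**Figure D2:**
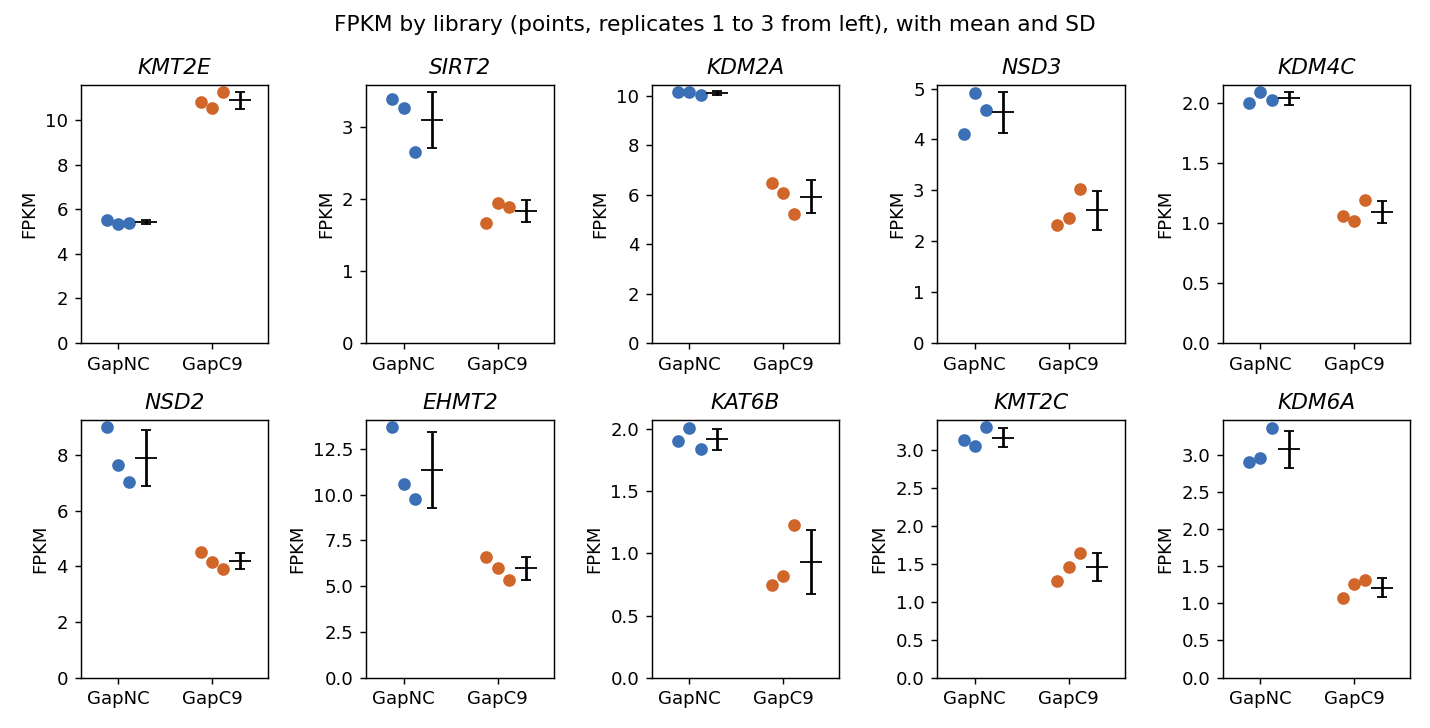
FPKM of the 10 enzymes with an adjusted p under 0.05, by library (points, replicates 1 to 3 from left to right within each group), with the mean and SD of each group (n = 3). GapNC and GapC9 do not overlap in any panel, and KMT2E is the panel in which GapC9 is above GapNC.

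The start regions of 5 of these genes are shown because their loci lie on different chromosomes or far apart and moved beyond the replicate spread in both directions. The letters were taken from RefSeq (GRCh38.p14), cover the 150 bases before the annotated transcript start on the gene's own strand, and have matches to 6 short motifs of either strand in capitals. The letters searched were GGGCGG for the GC box, CCAAT for the CCAAT box, TATAAA for the TATA box, CCGGAAG for the ETS site, CACGTG for the E-box and TGACGTCA for the CRE site, and overlapping matches run together in the capitals. KMT2E starts at chr7:105014055-105014204 (plus strand), KDM6A at chrX:44873038-44873187 (plus), KMT2C at chr7:152436004-152436153 (minus), NSD2 at chr4:1871243-1871392 (plus) and EHMT2 at chr6:31897699-31897848 (minus).
KMT2E: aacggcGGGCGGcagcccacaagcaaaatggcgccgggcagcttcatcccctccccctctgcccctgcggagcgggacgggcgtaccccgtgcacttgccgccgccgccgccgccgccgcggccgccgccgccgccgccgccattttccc
KDM6A: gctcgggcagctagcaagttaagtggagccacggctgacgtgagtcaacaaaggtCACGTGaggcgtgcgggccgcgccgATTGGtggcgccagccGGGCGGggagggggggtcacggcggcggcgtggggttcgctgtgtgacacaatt
KMT2C: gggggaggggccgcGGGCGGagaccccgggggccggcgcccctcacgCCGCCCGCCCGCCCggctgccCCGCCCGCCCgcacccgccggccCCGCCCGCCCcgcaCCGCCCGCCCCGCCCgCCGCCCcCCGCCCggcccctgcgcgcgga
NSD2: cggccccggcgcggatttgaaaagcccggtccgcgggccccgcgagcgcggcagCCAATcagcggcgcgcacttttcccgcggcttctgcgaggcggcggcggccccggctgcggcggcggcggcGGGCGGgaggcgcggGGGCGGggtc
EHMT2: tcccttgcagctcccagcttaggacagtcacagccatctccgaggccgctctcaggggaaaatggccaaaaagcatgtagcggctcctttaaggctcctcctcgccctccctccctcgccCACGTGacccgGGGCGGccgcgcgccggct
The window of KMT2C held 13 overlapping GC box matches and a GC content of 93.3%, that of NSD2 held 2, and those of KMT2E, KDM6A and EHMT2 held 1 each. KDM6A and NSD2 had a CCAAT match, KDM6A and EHMT2 an E-box, and none of the 5 had TATAAA. Over the 250 bases before the start, 98 RefSeq windows matched 64 of the 70 enzymes by symbol. The GC box was in 66.3% of these windows and in 42.6% of all 35116 RefSeq windows of that length, and TATAAA was in 1.02% and 10.7%. CCAAT was in 31.6% and 32.0%, the ETS site in 13.3% and 8.52%, the E-box in 12.2% and 6.34%, and the CRE site in 2.04% and 1.65%. The median window of the enzymes held 23 CpG and 67.4% GC, against 11 and 58% for all windows. KMT2E, the riser, and the fallers KDM6A, KMT2C, NSD2 and EHMT2 thus all had a GC box, with 16 (EHMT2) to 50 (NSD2) CpG in 250 bases. This holds for these 5 picked genes, and the matches are a description of the letters. Of the other fallers, KDM4C and SIRT2 had no GC box in the 250 bases, and KDM2A and KAT6B had it in only some windows. SIRT7, NSD3, KAT8, SETD1B, KAT6A and HDAC5 had no matching entry.

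Among the 8 H3K4 methyltransferases, KMT2E and KMT2C moved in opposite directions. KMT2E (MLL5), a SET domain protein with a PHD finger that binds methylated H3K4 and whose own methyltransferase activity is doubtful, is annotated at chr7:105014179-105114361 (GRCh38, plus strand, 27 exons in its longest transcript). It was at 5.53, 5.37 and 5.38 FPKM in GapNC and at 10.8, 10.6 and 11.3 FPKM in GapC9. The groups were far apart and the replicates within each group were close together. The log2 fold change was 0.99 ± 0.09 (SE; adjusted p = 0.0147, limma), a ratio of 2.01. Its exons overlap those of SRPK2 and of KMT2E-AS1 on the opposite strand, and the sources used here do not say whether strand was used in counting. SRPK2 was listed at 4.92, 5.12 and 5.59 FPKM in GapNC and at 3.58, 3.66 and 3.55 FPKM in GapC9, so it was lower where KMT2E was higher. KMT2E-AS1 overlapped between groups, from 0.91 to 1.39 and from 1.09 to 1.62 FPKM.

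KMT2C (MLL3), which monomethylates H3K4 at enhancers in a complex with KDM6A, lies on the same chromosome arm at chr7:152134922-152436005 (minus strand, 59 exons). It was at 3.14, 3.06 and 3.30 FPKM in GapNC and at 1.28, 1.45 and 1.65 FPKM in GapC9. All 3 GapC9 libraries were below the control libraries. The log2 fold change was −1.07 ± 0.13 (adjusted p = 0.0182, limma), a 2.17-fold lower mean. Its closest relative KMT2D (MLL4), joined with PRKAG1 in the table, was at 12.4 ± 1.67 and 14.0 ± 1.24 FPKM with overlapping groups (log2 fold change 0.19 ± 0.13). KMT2A (MLL1), which is rearranged in leukemia and acts with menin, was at 4.61, 4.57 and 4.50 FPKM in GapNC and at 6.01, 6.06 and 5.94 FPKM in GapC9. Its groups did not overlap, but the adjusted p of 0.0612 missed the threshold on the deposited scale. It passed after median scaling (log2 fold change 0.53, adjusted p = 0.0370, limma) and after the GC correction (0.42, adjusted p = 0.0194, limma).

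The remaining H3K4 enzymes lay at or above 0 on the log2 scale. SETD7, a monomethyltransferase with many targets other than histones, had the highest level of the class (13.6 ± 1.07 and 15.7 ± 0.669 FPKM), with groups that did not overlap and a log2 fold change of 0.21 ± 0.10. SETD1A, SETD1B and KMT2B overlapped between groups, with changes of 0.06, 0.32 and 0.00. After the GC correction all of these except SETD7 passed as higher (adjusted p of 0.0229, 0.0279 and 0.04998 in limma, in the order SETD1A, SETD1B and KMT2B), so the number of H3K4 methyltransferases called higher was 1 without and 5 with that correction, which also raised the share called higher among all genes and loci from 1.89% to 6.58%. The FPKM of the 8 genes summed to 60.5 ± 4.30 in GapNC and 70.9 ± 2.71 in GapC9 (117% of the control mean). The sums did not overlap, on the deposited scale or after median scaling (130%), and came to 122% without GapNC replicate 1. KMT2E, the called riser, made up a large part of the difference between these sums. With KMT2E taken out, the groups overlapped on the deposited scale. The joined row of KMT2D is also part of the sums. Median scaling also put other sums above the controls without overlap. These were H4K20 methyltransferases (112%), KDM1 demethylases (113%), class I HDACs (111%) and the SETD proteins outside these classes (111%).

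Of the 6 H3K9 methyltransferases, EHMT2 passed the test and the other 5 did not. EHMT2 (G9a), which places H3K9 mono- and dimethylation as a heterodimer with EHMT1 (GLP), is annotated at chr6:31879759-31897687 (minus strand, 27 exons). It was at 13.7, 10.6 and 9.78 FPKM in GapNC and at 6.57, 6.02 and 5.34 FPKM in GapC9. GapNC replicate 1 was the highest, and the groups did not overlap. The log2 fold change was −0.90 ± 0.16 (adjusted p = 0.0351, limma), and −0.76 (adjusted p = 0.0438, limma) without that library. EHMT2 was not called when any other library was left out. The partner EHMT1, joined with ARRDC1, was at 3.29 ± 0.611 and 2.61 ± 0.335 FPKM with overlapping groups. SETDB1, which trimethylates H3K9 at retroelements, was at 5.94, 6.14 and 5.30 FPKM in GapNC and at 7.51, 6.94 and 6.88 FPKM in GapC9. These groups did not overlap, and the log2 fold change of 0.29 ± 0.11 had an adjusted p of 0.160 in limma. SETDB1 shares exon sequence with CERS2 on the opposite strand, which was at 26.8 to 44.4 and at 27.2 to 47.1 FPKM. SUV39H1 (7.39 ± 1.83 and 7.32 ± 2.70 FPKM), SUV39H2 (5.24 ± 0.465 and 5.68 ± 0.0558 FPKM) and SETDB2, the lowest of the class (0.725 ± 0.104 and 0.757 ± 0.0662 FPKM), overlapped.

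The H3K27 methyltransferases, the catalytic subunits of Polycomb repressive complex PRC2, did not pass. EZH2 was at 14.8 ± 0.757 and 13.2 ± 0.392 FPKM (log2 fold change −0.16 ± 0.09). EZH1, at a lower level, was at 2.11, 2.07 and 2.73 FPKM in GapNC and at 2.90, 2.84 and 3.10 FPKM in GapC9 (0.35 ± 0.14, adjusted p = 0.193, limma). In both genes the 2 groups did not overlap, and the direction differed.

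The H3K36 methyltransferases were led by falls of NSD2 and NSD3. NSD2 (WHSC1, MMSET), the H3K36 dimethyltransferase activated by translocation in multiple myeloma, is annotated at chr4:1871424-1982207 (plus strand). It was at 9.02, 7.67 and 7.03 FPKM in GapNC and at 4.52, 4.14 and 3.92 FPKM in GapC9. Every GapC9 value was below 5 FPKM and every control value above 7 FPKM, with a log2 fold change of −0.89 ± 0.13 (adjusted p = 0.0260, limma). NSD3 was at 4.11, 4.91 and 4.58 FPKM in GapNC and at 2.33, 2.45 and 3.03 FPKM in GapC9, without overlap. Its log2 fold change was −0.78 ± 0.14 (adjusted p = 0.0371, limma), and the call was lost when any 1 library was left out (adjusted p from 0.0511 to 0.133, limma) and after median scaling (0.0650). All 9 falls, NSD2 included, lost their call when any library other than GapNC replicate 1 was left out. NSD3 lost it without that library as well. NSD3 shares exon sequence with DDHD2 on the opposite strand, which was at 5.34 to 6.78 and at 5.49 to 6.12 FPKM. NSD1, the relative lost in Sotos syndrome, was at 7.42 ± 0.837 and 8.80 ± 0.616 FPKM with overlapping groups. SETD2, which places H3K36 trimethylation, was at 4.88 ± 0.237 and 5.16 ± 0.187 FPKM and overlapped as well. The class summed to 24.7 ± 1.37 FPKM in GapNC and 20.8 ± 0.490 FPKM in GapC9 (83.9%), without overlap, and to 92.8% after median scaling, again without overlap.

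The H4K20 methyltransferases and the 5 SETD proteins outside these classes held no called gene. KMT5A, the H4K20 monomethyltransferase of the cell cycle, was the highest of its class (15.4 ± 1.06 and 14.8 ± 0.360 FPKM). KMT5B, which adds further methyl groups, was at 3.59, 4.82 and 4.19 FPKM in GapNC and at 4.95, 5.71 and 5.46 FPKM in GapC9, without overlap (log2 fold change 0.36 ± 0.14, adjusted p = 0.187, limma), and its relative KMT5C was at 1.14 ± 0.229 and 0.870 ± 0.0870 FPKM. Among the SETD proteins, SETD5 was the highest (14.4 ± 0.816 and 15.6 ± 0.690 FPKM) and SETD9 the lowest (1.06 ± 0.216 and 1.28 ± 0.148 FPKM). SETD6, which methylates the NF-kappaB subunit RELA, was at 3.61, 2.47 and 2.97 FPKM in GapNC and at 2.56, 1.98 and 1.79 FPKM in GapC9, with overlap. It shares exon sequence with CNOT1 on the opposite strand, which was at 36.3 to 42.5 and at 31.9 to 34.0 FPKM. SETD4 was at 2.15, 2.24 and 1.86 FPKM in GapNC and at 1.75, 1.76 and 1.49 FPKM in GapC9, without overlap (log2 fold change −0.31 ± 0.14, adjusted p = 0.221, limma). SETD3, the actin histidine methyltransferase, differed by 0.07 on the log2 scale.

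**Figure D3:**
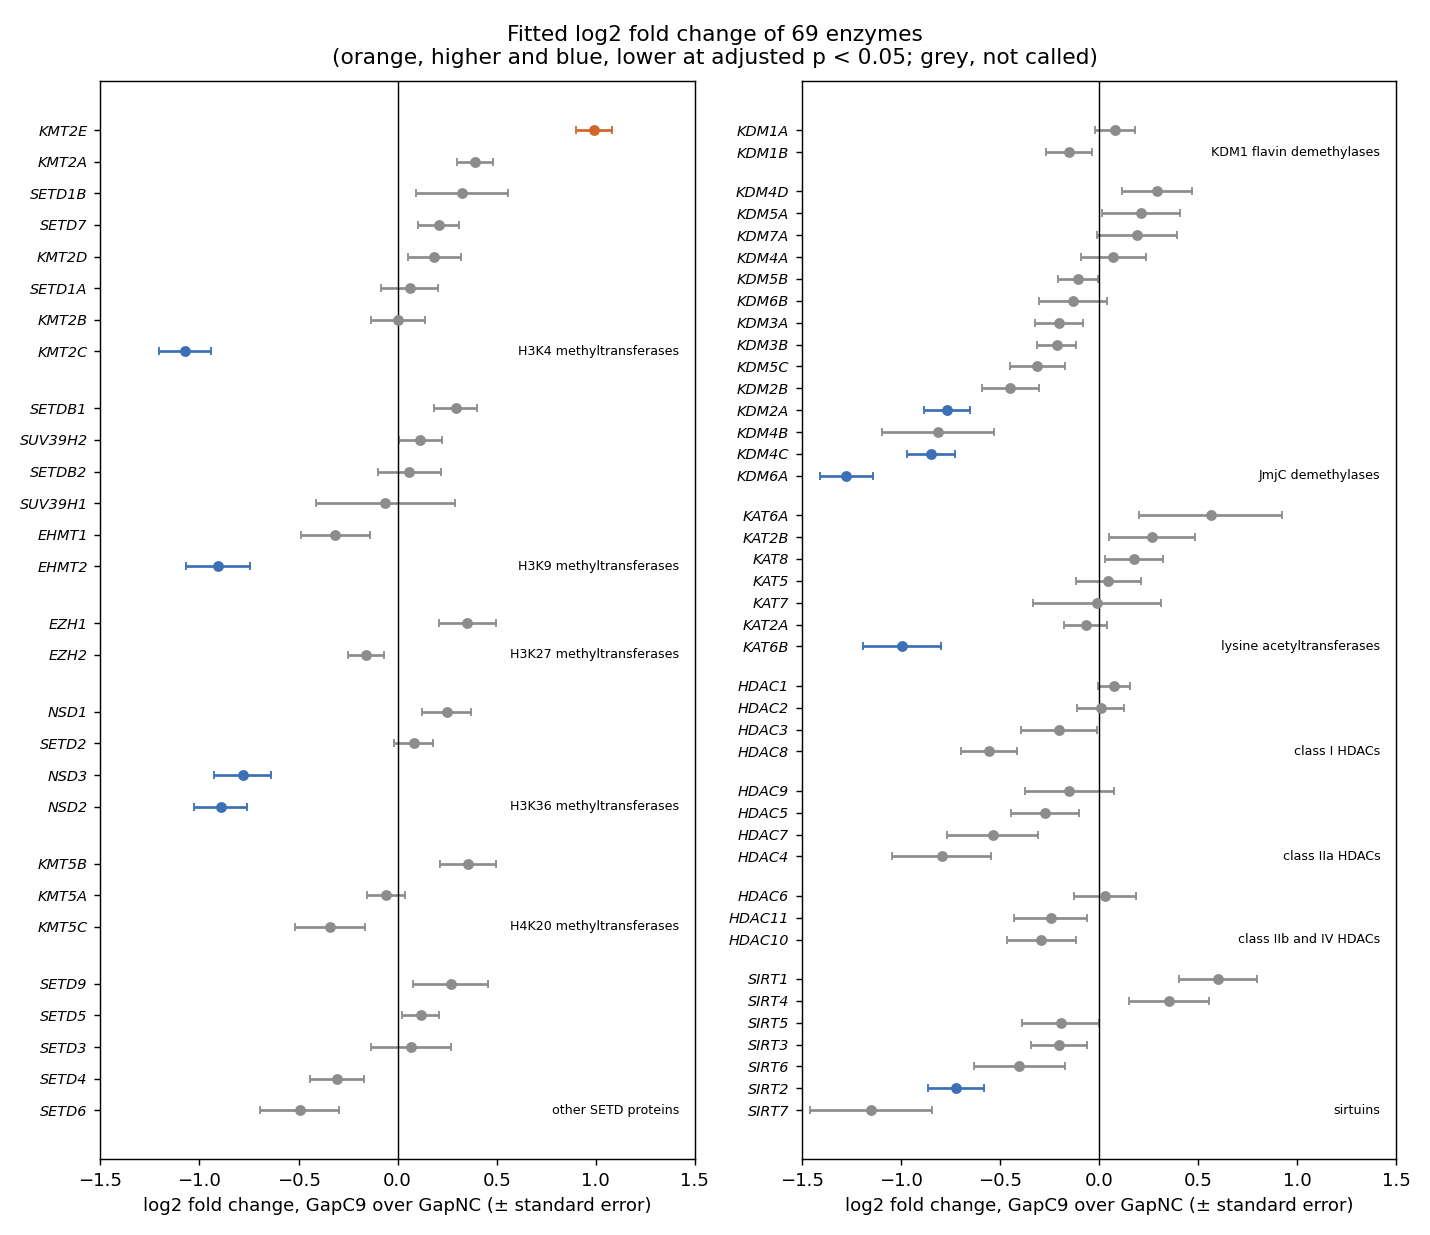
Fitted log2 fold change (GapC9 over GapNC) of 69 enzymes with its standard error, grouped by class and ordered by value within each class, with KDM5D left out. KMT2E at 0.99 (orange) and 9 enzymes between −0.72 and −1.27 (blue) passed an adjusted p of 0.05, and SIRT7 at −1.15 (grey) did not.

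The demethylases held 3 of the 9 falls, all in the JmjC class of 15 (5.1% of all genes and loci were called lower). KDM6A (UTX), the X-linked H3K27 demethylase of the KMT2C and KMT2D complexes, is annotated at chrX:44873177-45112602 (plus strand, 30 exons) and had the lowest log2 fold change of the 70. It was at 2.90, 2.96 and 3.36 FPKM in GapNC and at 1.07, 1.26 and 1.31 FPKM in GapC9. The lowest control library was more than 1.5 FPKM above the highest GapC9 library. The log2 fold change was −1.27 ± 0.13 (adjusted p = 0.0159, limma), a 2.53-fold lower mean. KDM6B (JMJD3), with the same substrate, was at 3.64 ± 0.699 and 3.30 ± 0.366 FPKM, and its groups overlapped.

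KDM4C (JMJD2C) removes H3K9 and H3K36 trimethylation and was at 1.99, 2.09 and 2.02 FPKM in GapNC and at 1.06, 1.01 and 1.19 FPKM in GapC9. Its log2 fold change was −0.85 ± 0.12 (adjusted p = 0.0239, limma). KDM2A, which binds unmethylated CpG islands and demethylates H3K36, was at 10.2, 10.2 and 10.0 FPKM in GapNC and at 6.48, 6.08 and 5.21 FPKM in GapC9. The control libraries were nearly equal, and all GapC9 libraries were below them (−0.77 ± 0.12, adjusted p = 0.0264, limma). Its paralog KDM2B was at 4.52, 4.17 and 3.77 FPKM in GapNC and at 3.33, 2.56 and 3.20 FPKM in GapC9, without overlap and with an adjusted p of 0.125 in limma (log2 fold change −0.45 ± 0.15). KDM4B, a paralog of KDM4C, was at 2.59, 1.6 and 1.33 FPKM in GapNC and at 1.22, 0.931 and 0.786 FPKM in GapC9. GapNC replicate 1 was the highest and set much of the control mean, and the log2 fold change of −0.81 ± 0.28 did not pass (adjusted p = 0.145, limma). KDM4A and KDM4D were at 10.4 ± 1.18 and 11 ± 1.97 FPKM and at 0.562 ± 0.0233 and 0.720 ± 0.146 FPKM, so the 4 KDM4 genes did not share a direction on the deposited scale.

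The other JmjC demethylases did not pass. KDM5C, an X-linked H3K4 demethylase, was at 12.8, 10.4 and 9.51 FPKM in GapNC and at 9.35, 8.40 and 8.36 FPKM in GapC9. KDM3B, an H3K9 demethylase and the highest of the class, was at 17.6, 15.4 and 15.3 FPKM in GapNC and at 14.3, 14.0 and 13.3 FPKM in GapC9. Both were without overlap, with log2 fold changes of −0.31 ± 0.14 and −0.21 ± 0.10. KDM3A (2.30 ± 0.0685 and 1.99 ± 0.183 FPKM) and KDM5B (2.47 ± 0.0267 and 2.29 ± 0.0523 FPKM) were also below the controls in every library. KDM5A and KDM7A were higher on average with overlapping groups. In the whole class the GapC9 libraries were below the controls for 9 of 15 genes and above them for 1, KDM4D, where 21.6% and 12.6% of all genes and loci were without overlap in these directions. The 14 genes other than KDM5D summed to 71.2 ± 5.32 FPKM in GapNC and 58.4 ± 3.62 FPKM in GapC9 (82.0%), without overlap. The sum was at 90.7% after median scaling, without overlap, and at 85.7% without GapNC replicate 1. The flavin enzymes KDM1A and KDM1B (8.63 ± 0.924 and 7.74 ± 0.226 FPKM) overlapped between groups.

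**Figure D4:**
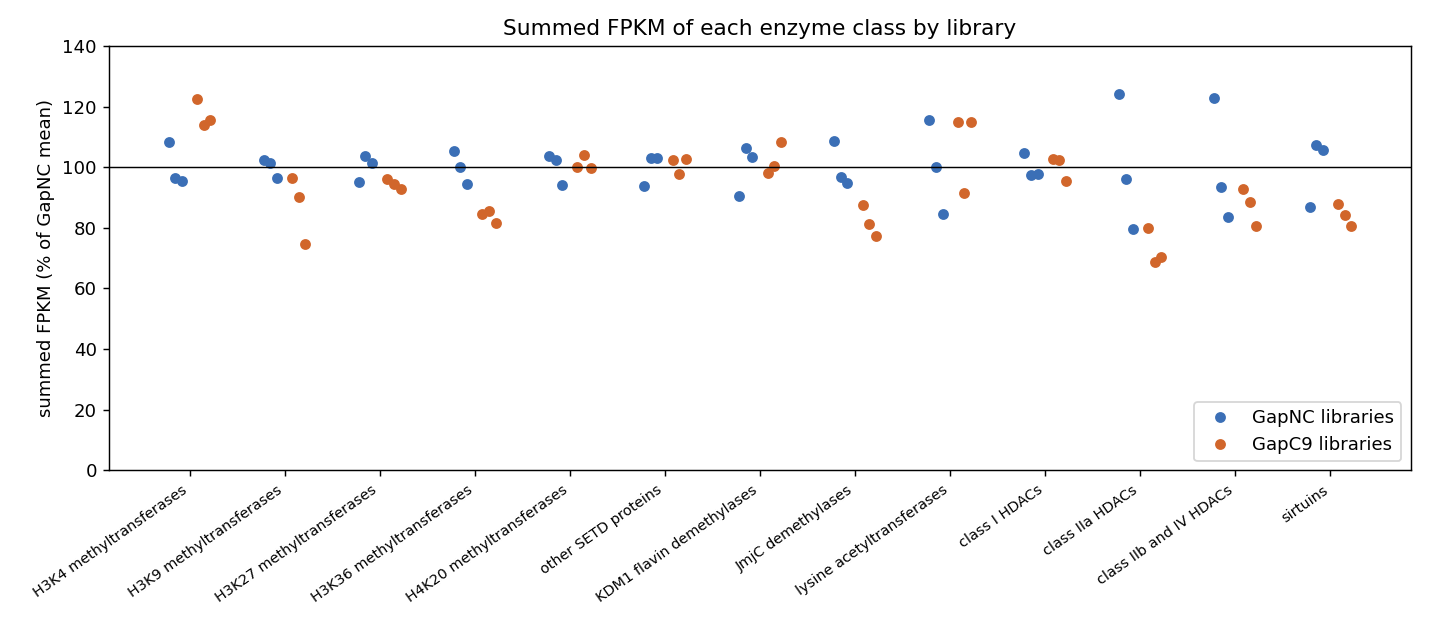
Summed FPKM of each enzyme class in each library, as a percent of the GapNC mean of that class (blue, 3 GapNC libraries and orange, 3 GapC9 libraries, replicates 1 to 3 from left to right), with KDM5D left out. On the deposited scale shown, GapC9 is above all controls for H3K4 methyltransferases (117%), whose groups overlap if KMT2E is taken out. It is below all controls for H3K36 methyltransferases (83.9%) and JmjC demethylases (82.0%), and the other classes overlap on this scale.

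Of the 7 acetyltransferases, KAT6B passed. KAT6B (MORF), a MYST enzyme that acetylates H3K23 and is mutated in genitopatellar syndrome, was at 1.90, 2.01 and 1.84 FPKM in GapNC and at 0.749, 0.818 and 1.23 FPKM in GapC9. The control libraries lay close together and the GapC9 libraries were more spread, with replicate 3 the highest. The log2 fold change was −0.995 ± 0.198 (adjusted p = 0.0431, limma), a 2.06-fold lower mean, and the call was lost when any 1 library was left out (adjusted p from 0.0647 to 0.143, limma) and after median scaling (0.0632). Its paralog KAT6A (MOZ) was at 11.8 ± 4.02 and 17.4 ± 5.40 FPKM, with wide, overlapping groups. KAT7 was joined with another locus and was at 4.34 ± 1.46 and 4.34 ± 1.58 FPKM. KAT2A, KAT5 (11 ± 2.21 and 11.3 ± 0.842 FPKM) and KAT8 (5.82 ± 0.890 and 6.56 ± 0.499 FPKM), the catalytic subunits of the SAGA, TIP60 and MSL complexes, overlapped, as did KAT2B, the lowest (0.611 ± 0.0702 and 0.770 ± 0.209 FPKM).

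None of the 11 HDACs passed in limma at the adjusted threshold, and 2 of them were lower and 0 higher at an unadjusted p under 0.05, where 16.8% and 9.09% of all genes and loci were. HDAC8, an X-linked class I enzyme that deacetylates the cohesin subunit SMC3, was at 1.71, 1.41 and 1.81 FPKM in GapNC and at 1.04, 1.10 and 1.10 FPKM in GapC9, without overlap. Its log2 fold change was −0.55 ± 0.14 with an adjusted p of 0.0710, and 0.0476 after the GC correction (limma). HDAC1, HDAC2 (9.61 ± 1.11 and 9.62 ± 0.209 FPKM) and HDAC3 (14.0 ± 2.69 and 12.2 ± 1.90 FPKM), the catalytic subunits of the SIN3, NuRD, CoREST and NCoR complexes, overlapped. HDAC4, a class IIa enzyme that shuttles between nucleus and cytoplasm, was at 0.610, 0.620 and 0.558 FPKM in GapNC and at 0.446, 0.290 and 0.203 FPKM in GapC9. Its groups did not overlap, at low levels (−0.79 ± 0.25, adjusted p = 0.116, limma). HDAC7 was at 4.28, 3.26 and 2.37 FPKM in GapNC and at 2.44, 1.97 and 2.16 FPKM in GapC9, with GapNC replicate 1 the highest and replicate 3 inside the range of GapC9. HDAC5, the highest of class IIa (4.0 ± 0.859 and 3.25 ± 0.149 FPKM), overlapped. HDAC10, joined with MAPK12, was at 4.93 ± 1.04 and 3.96 ± 0.302 FPKM, HDAC6, the tubulin deacetylase, at 3.23 ± 0.560 and 3.28 ± 0.3 FPKM and HDAC11 at 2.44 ± 0.578 and 2.01 ± 0.0950 FPKM, all with overlap.

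Among the 7 sirtuins, SIRT2 passed by adjusted p and SIRT7 by the study's threshold. SIRT2, a mainly cytoplasmic deacetylase of tubulin and H4K16, was at 3.38, 3.26 and 2.65 FPKM in GapNC and at 1.66, 1.95 and 1.88 FPKM in GapC9, without overlap. The log2 fold change was −0.72 ± 0.14 (adjusted p = 0.0425, limma), and no library could be left out without losing the call (adjusted p from 0.0668 to 0.127, limma). It also missed the threshold after median scaling (0.0658) and after the GC correction (0.0630). SIRT2 shares exon sequence with NFKBIB on the opposite strand, which was at 9.65 to 14.9 and at 7.63 to 12 FPKM. SIRT7, a nucleolar H3K18 deacetylase, was at 5.55, 11.1 and 11.6 FPKM in GapNC and at 4.42, 4.24 and 3.35 FPKM in GapC9. All GapC9 libraries were below the controls, and GapNC replicate 1 was far below the other controls. With all libraries the log2 fold change was −1.15 ± 0.31 (adjusted p = 0.0819, limma) and without GapNC replicate 1 it was −1.49 (adjusted p = 0.0264, limma). The table joined SIRT7 with its neighbor MAFG on the same strand, so the value is of both genes.

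SIRT1, the nuclear deacetylase of p53 and histones, was at 5.29, 7.88 and 8.53 FPKM in GapNC and at 10.2, 10.9 and 11.3 FPKM in GapC9. It was above the controls in every GapC9 library, with a log2 fold change of 0.60 ± 0.20 (adjusted p = 0.124, limma) and of 0.51 (adjusted p = 0.0327, limma) after the GC correction. SIRT6, an H3K9 and H3K56 deacetylase, was at 6.60 ± 1.39 and 4.99 ± 1.16 FPKM. The mitochondrial SIRT3 (2.28 ± 0.275 and 1.97 ± 0.190 FPKM), SIRT4, the lowest of the class (1.02 ± 0.141 and 1.35 ± 0.308 FPKM), and SIRT5 (1.43 ± 0.336 and 1.22 ± 0.141 FPKM) overlapped.

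The called enzymes were compared with the others by annotated gene length, which the selection did not use. The 9 that fell spanned 17.9 to 455 kb of the genome with a median of 139 kb, the 60 that did not pass had a median of 44.8 kb, and KMT2E spanned 100 kb. Among the 8 enzymes over 200 kb, 4 were lower (KDM4C, KMT2C, KDM6A and KAT6B, 50.0%), against 17.0% of 906 genes and loci of that span in the whole table. Between 100 and 200 kb 3 of 12 were lower (25%, against 11.2% of 1596), between 25 and 50 kb 0 of 17 (against 3.94% of 2922), between 50 and 100 kb 0 of 15 (against 6.67% of 2444), and under 25 kb 2 of 18 (EHMT2 and SIRT2, 11.1% against 2.54% of 8041). Over all genes and loci tested, the share called lower was larger at each longer span, from 2.54% to 17.0%, whereas the share called higher was 1.99% under 25 kb and 1.32% over 200 kb. Across the 70 enzymes Spearman's rho between span and log2 fold change was −0.12 (−0.07 across 15909 genes and loci), and between GC content and log2 fold change −0.36 (−0.25). The points share the same 6 libraries, including GapNC replicate 1 with its GC trend. The part of length, GC content and expression level in the calls was not tested.

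The enzymes act in complexes, and 103 other subunits, readers and enzymes of the same marks were tested, of which 5 were higher and 8 lower at an adjusted p under 0.05, where 1.89% and 5.1% of all genes and loci were. These shares are the background of the counts for each list below, in which single lists hold few genes. Their median log2 fold change was −0.05. Among 20 subunits of acetyltransferase complexes 2 rose and 2 fell. TRRAP, the scaffold of the SAGA and TIP60 complexes, was at 14.2, 11.4 and 11.3 FPKM in GapNC and at 4.94, 4.30 and 4.35 FPKM in GapC9 (log2 fold change −1.41 ± 0.13, adjusted p = 0.0154, limma), and its row was joined with a second locus. EP400, the ATPase of the TIP60 complex, fell by 0.55 on the log2 scale (adjusted p = 0.0473, limma). In the opposite direction, EPC1, another TIP60 subunit, was at 1.61, 2.01 and 1.61 FPKM in GapNC and at 3.01, 3.87 and 3.79 FPKM in GapC9 (0.99 ± 0.16, adjusted p = 0.0295, limma), and KANSL3 of the KAT8 complex NSL rose by 0.63 (adjusted p = 0.0260, limma). TAF1, the largest TFIID subunit, was at 4.0, 4.14 and 4.07 FPKM in GapNC and at 2.0, 1.99 and 1.98 FPKM in GapC9 (−0.996 ± 0.0985, adjusted p = 0.0159, limma), the only call among 8 other acetyltransferases.

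Of 23 subunits of HDAC corepressor complexes, 2 fell and 1 rose. NCOR1, a scaffold that binds HDAC3, was at 7.40, 7.54 and 7.09 FPKM in GapNC and at 3.97, 4.09 and 4.38 FPKM in GapC9 (log2 fold change −0.81 ± 0.10, adjusted p = 0.0182, limma). It was below the controls in every GapC9 library, while HDAC3 itself overlapped. SAP18 of the SIN3 complex rose from 28.5 ± 0.735 to 39.5 ± 1.31 FPKM (0.47 ± 0.08, adjusted p = 0.0315, limma). Of 9 PRC2 genes 1 fell, JARID2, a DNA-binding cofactor of the complex, from 4.16 ± 0.336 to 2.10 ± 0.247 FPKM (−0.96 ± 0.13, adjusted p = 0.0233, limma). Of 10 COMPASS genes 1 fell, NCOA6 of the KMT2C and KMT2D complexes, joined with PIGU (7.93 ± 0.161 to 5.49 ± 0.0816 FPKM, adjusted p = 0.0318, limma).

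Of 12 readers of acetylated or methylated lysine, 2 rose and 1 fell. BRD2, a bromodomain protein of the BET family, rose from 41.9 ± 4.10 to 65.2 ± 4.36 FPKM (log2 fold change 0.64 ± 0.11, adjusted p = 0.0314, limma). MPHOSPH8, the H3K9 methylation reader of the HUSH complex, rose from 6.49 ± 0.284 to 10.5 ± 1.51 FPKM (0.68 ± 0.14, adjusted p = 0.0429, limma), and BRD9 of the BAF complexes fell from 2.82 ± 0.266 to 1.72 ± 0.193 FPKM (−0.69 ± 0.14, adjusted p = 0.0438, limma). All of these readers were in rows joined with another locus. Among 14 other histone methyltransferases and 7 other demethylases, limma called 0 at the adjusted threshold. At an unadjusted p under 0.05, 1 was higher and 2 were lower in each list, where 9.09% and 16.8% of all genes and loci were.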

How the data were processed

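Poly(A) RNA of HCT-116 cells was sequenced as paired ends from 3 GapNC and 3 GapC9 libraries. The authors mapped reads to the human genome with HISAT and deposited gene FPKM values computed by StringTie in 1 table. The submitters' processing notes list Bowtie 0.12.2, HISAT2 2.0 and StringTie 1.3.0 and name a mouse genome build, whereas the study's methods name the human genome. The human build and the use of strand are not given in the sources used here. The authors called genes with edgeR, and count tests were not used because the values are FPKM. StringTie can join neighboring genes into 1 row, which was so for 1063 of 27918 rows and 6 of the 70 enzymes. The exons of 31 enzymes overlap a gene of the opposite strand.

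Groups were taken from the sample records and columns from their names (0 unused). In R 4.3.3, limma 3.58.1 (lmFit, eBayes with trend, two-sided) was fitted to log2(FPKM + 0.1) of the 16028 rows with a mean of at least 0.1 FPKM, all 6 libraries together, with Benjamini-Hochberg adjustment over all of these rows. Fold changes are on that scale, which understates changes of low genes. SDs are over the 3 libraries of a group, and standard errors come from the limma fit. Depth is unknown beyond the step between low FPKM values, so no counting error is given. Gene spans, exons and GC content came from GENCODE release 29 (GRCh38), matched by transcript identifier for 27771 rows, and promoters from RefSeq (GRCh38.p14). Figures and sums were made in Python 3.11.15.

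Named with every library's value were enzymes past an adjusted p of 0.05 or the study's threshold, SIRT7, and further enzymes by unadjusted p up to 25 in all. Means are given for the highest and lowest of each class and for others. Called partner genes could be named, and a few are given as means. Some listed genes are counted but not reported here by name. The enzymes and lists were chosen with earlier results of these data known. The classes exclude KDM5D from sums. KDM4E was listed but had no row of that symbol. SETD8, an older symbol of KMT5A, was also listed and had no row apart from that of KMT5A. The alternatives were other pseudocounts (1 and 0.01), filters (1 FPKM, none, no row listed at 0), median scaling, quantile normalization, no trend, robust variances, a replicate block, a GC correction (lowess, span 0.3), a fitted fold change and leaving out each library. Class sums under median scaling and without GapNC replicate 1 were chosen after the values were seen.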

Additional observations from a re-analysis of the deposited data

How the results depend on the processing

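The enzymes called by adjusted p (1 higher, 9 lower) numbered 2 higher with a filter at 1 FPKM and under median scaling and quantile normalization, 6 higher with the GC correction, and 5 lower with no filter, where more genes were tested. Of all genes and loci, 3.03% were called higher and 8.70% lower with the 1 FPKM filter (enzymes 3.17% and 14.3%). The shares were 2.16% and 3.22% under quantile normalization (enzymes 2.86% and 8.57%). With no filter they were 0.523% and 1.24% (enzymes 1.43% and 7.14%). Median scaling and quantile normalization each kept 6 of the 9 falls, and the GC correction 8 of the 9. With the replicate block, and with the GC correction and replicate block together, limma called 0 higher and 0 lower (0 and 0 of the 16028 genes and loci for the block alone), with 7 and 16 higher and 20 and 12 lower at an unadjusted p under 0.05 (of all genes and loci, 1618 and 2385 higher and 2952 and 2250 lower). Correlations of deviations were 0.113, 0.036 and 0.033 for the same replicate numbers and −0.119 to 0.087 for different numbers. They cannot show that no effect was shared, because the deviations within a group depend on each other. The block leaves fewer degrees of freedom. Even so, unadjusted calls rose with it from 5 to 7 higher and 15 to 20 lower enzymes. Among all genes and loci they rose from 1457 to 1618 higher and from 2700 to 2952 lower. Leaving out 1 library gave 0 to 1 higher and 0 to 7 lower. The call of 0 lower came without GapNC replicate 2 or 3 or any GapC9 replicate, with 11 to 18 lower at an unadjusted p, and KMT2E stayed called without GapNC replicate 1 or 3. All 10 called enzymes kept their sign under every alternative. By the study's threshold (1 higher, 4 lower) there were 0 higher with the GC correction, with the GC correction and replicate block, and with the fitted fold change, 2 lower under median scaling and quantile normalization, and 0 to 1 higher and 3 to 6 lower with 1 library left out. Among all genes and loci, 336 were higher and 693 lower by that threshold. Those lower numbered 420 under median scaling and 490 under quantile normalization. Those higher numbered 455 with the GC correction, 430 with the block added and 246 with the fitted fold change. With 1 library left out, 323 to 386 of all genes and loci were higher and 554 to 809 lower. The median log2 fold change (−0.06) turned to 0.0806 under median scaling, 0.0123 under quantile normalization and 0.0174 with the GC correction, with or without the block, and ranged from −0.10 to −0.06 with 1 library left out. The causes of these changes were not tested. The fits with the block or with 1 library left out also have fewer degrees of freedom. Without counts, the precision of enzymes near 0.1 FPKM, such as HDAC9, is not known.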
